A study of Mus musculus with 16 samples.

Results

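The mitochondrial ribosomal proteins were taken as the genes whose symbol in the deposited counts is Mrpl or Mrps, then a number, then at most 1 letter. This gave 78 of the 41079 genes in the table, 49 named for the large subunit (Mrpl) and 29 for the small subunit (Mrps). The mitochondrial ribosome is built from proteins that are encoded in the nucleus and imported, and from ribosomal RNA encoded in mitochondrial DNA. It translates the messenger RNAs of mitochondrial DNA, which code for subunits of the respiratory chain and of ATP synthase, and the hepatocyte is rich in mitochondria. RNA from the livers of 16 C57BL/6J mice aged 20 to 22 months was sequenced after poly-A selection, to compare the aged liver with and without the hepatic glucagon receptor in each sex. There were 4 male CRE-, 4 male LKO, 4 female CRE- and 4 female LKO mice. Every mouse carried a floxed Gcgr gene, with exons 6 to 12 flanked by LoxP sites. The LKO mice also carried Cre under the Albumin promoter, which acts in hepatocytes from development on, and the CRE- mice carried no Cre. The depth ran from 33268424 to 56488920 reads on genes in a library. All 78 genes had at least 10 counts in every library, the fewest being 43 for Mrps6, and all passed the filter on low counts that kept 16742 genes. Levels are given in CPM, counts relative to the library's total after TMM normalization.

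Gcgr, the targeted gene, was at 190, 193, 127 and 190 CPM in male CRE- replicates 1 to 4 and at 117, 136, 130 and 160 CPM in male LKO replicates 1 to 4. The library labelled male CRE- replicate 3 thus lay within the range of the male LKO libraries, and the other 3 male controls lay above it. In females Gcgr was at 162, 208, 201 and 180 CPM in CRE- replicates 1 to 4 and at 48.8, 132, 119 and 93.6 CPM in LKO replicates 1 to 4, with every LKO library below every control. Its log2 fold change was -0.37 in males (SE 0.24, adjusted p = 0.671 by edgeR's quasi-likelihood test, Benjamini-Hochberg adjusted). It was -0.93 in females (SE 0.25, adjusted p = 0.0443 by edgeR's quasi-likelihood test, Benjamini-Hochberg adjusted), and -0.69 without replicate 1 of the LKO group. That call did not hold in 7 of the 8 fits made with a single female mouse removed, but it held with both libraries that stood apart (described below) left out and with DESeq2. Without the library labelled male CRE- replicate 3, the male value was -0.51. The sex difference was -0.57 (SE 0.35). Reads were counted over all exons of the gene, those outside the LoxP sites among them, and in cells without Cre as well.

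The library labelled male CRE- replicate 3 and the library of female LKO replicate 1 stood apart from the others in the mitochondrial ribosomal proteins. The first was the lowest of its group for 73 of the 78 genes, and for 34.9% of all genes tested. The second was the lowest of its group for 76 of the 78, and for 33.5% of all genes tested. Other libraries reached like shares: female CRE- replicate 1 was the lowest of its group for 69 of the 78, and female CRE- replicate 4 for 34.1% of all genes tested. Both also stood apart over genes at large. The slope of a library's log2 deviation from the mean of all libraries on log2 gene length was 0.322 in the first and 0.248 in the second, so that short genes were low in them, and it lay between -0.129 and 0.0284 in the other 14. Sample quality weights from limma-voom were 0.296 and 0.216 in these libraries and at least 0.540 in the others. What sets these libraries apart was not tested. Results for the 78 genes as a set, medians of most lists and values of many single genes are given below with and without them. Leaving out both was chosen after seeing the data.

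Summed over the 78 genes, the level was 1951, 2552, 1346 and 2451 CPM in male CRE- replicates 1 to 4 and 2288, 2650, 2228 and 2773 CPM in male LKO replicates 1 to 4. In females it was 2214, 2673, 2702 and 3097 CPM in CRE- replicates 1 to 4 and 1258, 2466, 2283 and 2262 CPM in LKO replicates 1 to 4. The LKO and CRE- values overlapped in each sex. The means were 2075 ± 553 CPM in male CRE- mice and 2485 ± 267 CPM in male LKO mice (SD, n = 4 each). In females they were 2671 ± 361 CPM in CRE- mice and 2067 ± 547 CPM in LKO mice (SD, n = 4 each). Without the libraries that stood apart, male CRE- mice were at 2318 ± 322 CPM and female LKO mice at 2337 ± 112 CPM (SD, n = 3 each). These are bulk livers, in which fewer cells of a type and less RNA per cell cannot be told apart.

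**Figure D1:**
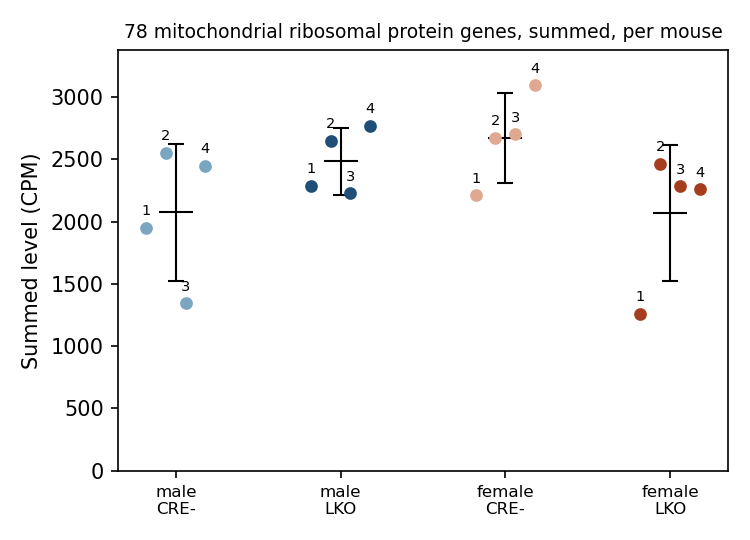
Summed level of the 78 mitochondrial ribosomal protein genes in each mouse (CPM), with the replicate number beside each point and the mean and SD of the 4 mice of a group as bars. Male CRE- replicate 3 (1346 CPM) and female LKO replicate 1 (1258 CPM) lie below every other mouse.

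In female LKO mice all 78 genes had a log2 fold change below 0, from -0.70 (Mrps27) to -0.09 (Mrpl3), with a median of -0.37, while 46.9% of all genes tested were below 0 and their median was 0.04. In male LKO mice 77 of the 78 were above 0, from 0.01 to 0.86 (Mrps6), with a median of 0.27, and Mrps25 was at -0.01. Of all genes tested in males 49.1% were above 0, and their median was -0.01. The difference between the sexes (female minus male log2 fold change) was below 0 for all 78, with a median of -0.64, against 47.7% of all genes tested and their median of 0.04. With RLE and upper-quartile normalization 76 and 77 of the 78 were above 0 in males and all 78 below 0 in females, and the medians of the 78 were 0.26 and 0.27 in males, -0.35 and -0.31 in females, and -0.61 and -0.59 for the sex difference. By limma-voom the female median was -0.22, with 4 of the 78 above 0, the male median 0.27 and the sex difference -0.52.

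The tools differed in how many of the 78 passed an adjusted p of 0.05. In males edgeR's quasi-likelihood test called 0 of the 78, where it called 0.454% of all genes tested, and 1 of the 78 had an unadjusted p under 0.05 with a higher level, against 4.79% of all genes. In females it called 0 of the 78, against 4.24% of all genes, and 15 of the 78 had an unadjusted p under 0.05, all lower, which is 19.2% of them against 9.14% of all genes. For the sex difference it called 0 of the 78, against 0% of all genes, and 26 had an unadjusted p under 0.05, all lower, which is 33.3% against 6.68%. That count was 11 with upper-quartile normalization (14.1%, against 5.09%), where 10 were lower in females (12.8%, against 7.68%). With each sex fitted alone, 9 were lower in females (11.5%, against 7.56% of all genes). In that female fit edgeR called 0 of the 78 and 0.756% of all genes. DESeq2 called 0 of the 78 in males (2.02% of all genes), 3 in females (10.8%) and 0 for the sex difference (2.22%). The 3 were Mrpl45, Mrpl15 and Mrps27, and limma-voom with sample quality weights called 0 in males (0.884% of all genes), 2 in females (11.8%; Mrps27 and Mrpl15) and 0 for the sex difference (0.173%). At an unadjusted p under 0.05 limma-voom had 12 of the 78 higher in males, against 7.36% of all genes. In females it had 12 lower (15.4%, against 13.1% of all genes), and for the sex difference 33 lower (42.3%, against 10.8%). The LKO and CRE- values did not overlap for 15 of the 78 in females, all lower in LKO mice (19.2%, against 6.42% of all genes). In males they did not overlap for 2 of the 78, both higher in LKO mice (2.56%, against 3.57% of all genes). With the replicate number as a block, a pairing that the labels do not state, edgeR called 4 of the 78 in females (5.13%, against 6.04% of all genes). At an unadjusted p under 0.05 that fit had 16 higher in males (6.43% of all genes), 32 lower in females (12.02%) and 59 lower for the sex difference (11.2%).

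Leaving out both libraries that stood apart brought the medians closer to 0. They were 0.09 in males, -0.16 in females and -0.26 for the sex difference, with 64, 16 and 5 of the 78 above 0. Without the library labelled male CRE- replicate 3 alone, the male median was 0.08 and the sex difference -0.44. Without female LKO replicate 1 alone, the female median was -0.16 and the sex difference -0.43. With both left out, edgeR called 0 of the 78 in each comparison, against 0.454% of all genes in males, 2.13% in females and 0% for the sex difference. At an unadjusted p under 0.05, 1 of the 78 was higher in males (4.53% of all genes were). In females 8 were lower (10.3%, against 8.60% of all genes), and for the sex difference 3 (3.85%, against 4.26%).

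Most of the 78 genes are short, and gene length moved with the comparisons. The exons of the 78 covered a median of 1505.5 bases, from 412 (Mrpl52) to 8707 (Mrpl3), against 3481 for all genes tested. The genes tested were split by length into 10 bands of like gene number. The median log2 fold change of the other genes went from 0.28 in the shortest band to -0.23 in the longest in males. In females it went from -0.09 to 0.14, and for the sex difference from -0.42 to 0.38. The shortest band held 30 of the 78 genes and the next 17. The 10600 other genes of like length (708 to 5033 bases, the range that holds the middle of the 78 from their 10th to their 90th percentile) had medians of 0.06 in males, -0.01 in females and -0.08 for the sex difference. Of these, 0.491% were called in males, 4.92% in females and 0% for the sex difference. At an unadjusted p under 0.05, 5.83% were higher in males, 11.2% lower in females and 8.51% lower for the sex difference. Of the 78 these were 1.28%, 19.2% and 33.3%. The female LKO and CRE- values did not overlap, with LKO lower, for 7.79% of the genes of like length. With both libraries that stood apart left out, the medians of the genes of like length were 0.01 in males, 0.02 in females and -0.03 for the sex difference.

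Set against the median of the other genes in its own band of length, the median of the 78 was 0.09 in males, -0.32 in females and -0.38 for the sex difference. In males 60 of the 78 were above the other genes of their band, in females 78 of 78 were below it, and for the sex difference 76 were below it. With a smooth trend on length removed from each library as an offset, the medians of the 78 were 0.10 in males, -0.28 in females and -0.38 for the sex difference. In that fit edgeR called 2 of the 78 in females, Mrps27 and Mrps16, both lower (2.56%, against 6.70% of all genes), and 0 in males and for the sex difference. At an unadjusted p under 0.05 there were 0 in males, 22 in females, all lower (28.2%, against 10.8% of all genes), and 21 for the sex difference, all lower (26.9%, against 6.62%). With the trend removed and both libraries that stood apart left out, the medians were 0.04, -0.18 and -0.27. There edgeR called 0 of the 78 in each comparison (2.697% of all genes in females). At an unadjusted p under 0.05 stood 1 in males, 16 in females, all lower (20.5%, against 10.02% of all genes), and 5 for the sex difference, all lower (6.41%, against 5.09%).

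**Figure D2:**
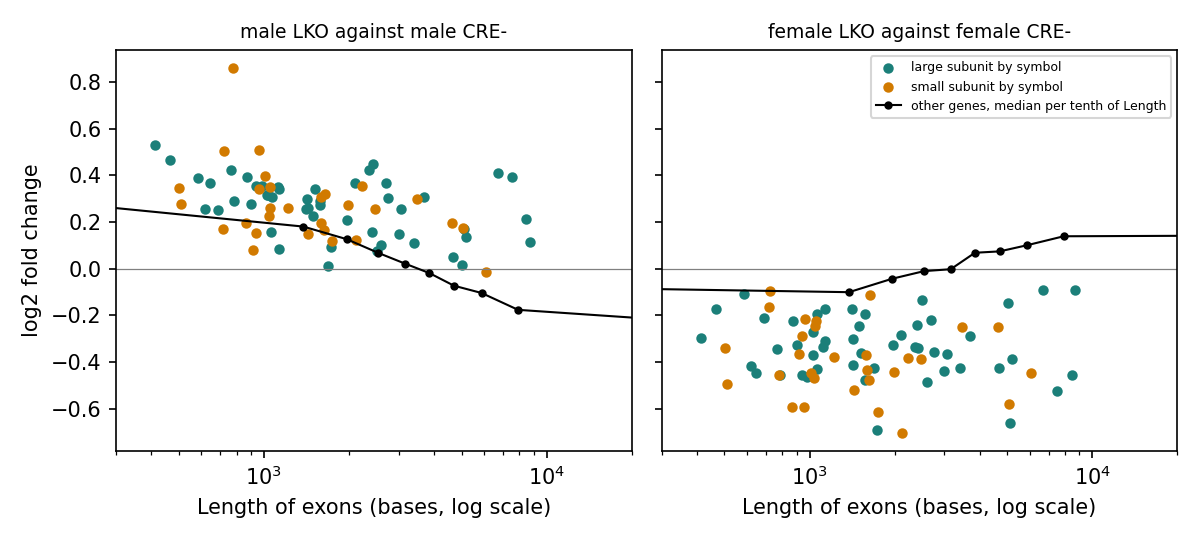
Log2 fold change of each of the 78 genes (points, coloured by subunit) against the length of its exons in bases (log scale), in males and in females, with the median of all other genes in each of the 10 bands of length as a black line. From the shortest to the longest band the median falls from 0.28 to -0.23 in males and climbs from -0.09 to 0.14 in females. The points of the shortest and longest bands lie outside the axis shown. In females nearly all genes lie below the line, and each was below the median of its own band.

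The subunits had like medians. The median log2 fold change of the 49 genes named for the large subunit was 0.29 in males, -0.34 in females and -0.60 for the sex difference. The 29 named for the small subunit had 0.26, -0.39 and -0.67. Split by descent, the 29 proteins of the large subunit with a counterpart in bacteria had medians of 0.28 in males and -0.34 in females, and the 22 without one had 0.27 and -0.35. The 17 proteins of the small subunit with a counterpart in bacteria had 0.30 and -0.44, and the 9 without one had 0.20 and -0.37. In that split Mrps30 and Mrps18a, which sit in the large subunit in spite of their names, were counted there, and Mrps36 was left out. With both libraries that stood apart left out, these 4 medians lay between 0.08 and 0.13 in males and between -0.18 and -0.10 in females. Differences between the subunits were not tested.

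Among the large subunit proteins, Mrpl15 had the smallest p in females. It lies on chromosome 1 of GRCm39 from 4843432 to 4855949, on the minus strand. Its level was 66.6, 71.7, 77.96 and 97.2 CPM in female CRE- replicates 1 to 4 and 35.8, 63.3, 50.3 and 48.5 CPM in female LKO replicates 1 to 4. In males it was 42.8, 71.1, 37.1 and 56.9 CPM in CRE- replicates 1 to 4 and 53.8, 61.0, 52.7 and 66.4 CPM in LKO replicates 1 to 4. The female groups did not overlap, with LKO lower, and the males overlapped. LKO against CRE-, the females gave -0.66 in log2 (SE 0.21, adjusted p = 0.0827 by edgeR's quasi-likelihood test, Benjamini-Hochberg adjusted), and -0.52 with both libraries that stood apart left out. Without female LKO replicate 2 it was -0.80 and passed the threshold, the only such case among the 78. In males it was 0.17 (SE 0.21), and the sex difference was -0.83 (SE 0.30, adjusted p = 0.230 by edgeR's quasi-likelihood test, Benjamini-Hochberg adjusted). The sex difference was -0.54 with both libraries left out.

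Mrpl45, which sits at the exit of the peptide tunnel and ties the ribosome to the inner membrane, varied little within the female groups. It lies on chromosome 11 from 97205749 to 97220746, on the plus strand. Its level was 28.7, 31.2, 29.98 and 31.0 CPM in female CRE- replicates 1 to 4 and 21.3, 22.7, 23.8 and 22.0 CPM in female LKO replicates 1 to 4. Female LKO replicate 1 was close to the other female LKO mice here, and no female LKO mouse reached a control. The female log2 fold change was -0.43 (SE 0.14, adjusted p = 0.0886 by edgeR's quasi-likelihood test, Benjamini-Hochberg adjusted), and -0.38 with both libraries left out. In males the level was 22.7, 30.8, 23.8 and 26.6 CPM in CRE- replicates 1 to 4 and 23.3, 28.8, 26.6 and 33.4 CPM in LKO replicates 1 to 4, which overlapped (log2 fold change 0.11, SE 0.14).

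Mrpl12, which is also known to bind the mitochondrial RNA polymerase, was the most abundant of the 78 per kilobase. It was at 82.4, 128, 62.9 and 120 CPM in male CRE- replicates 1 to 4 and at 118, 139, 97.5 and 148 CPM in male LKO replicates 1 to 4. It was at 99.1, 136, 150 and 174 CPM in female CRE- replicates 1 to 4 and at 52.6, 133, 115 and 105 CPM in female LKO replicates 1 to 4. The groups overlapped in each sex, and the lowest mouse of each sex was the library that stood apart. The log2 fold change was 0.36 in males (SE 0.28) and -0.46 in females (SE 0.28), and with both libraries left out it was 0.18 and -0.23.

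Mrpl1, a protein of the large subunit, was at 31.3 ± 3.04 CPM in female CRE- mice and 23.3 ± 3.14 CPM in female LKO mice (SD, n = 4 each), without overlap. Its female log2 fold change was -0.43 (SE 0.15) with all mice and -0.33 with both libraries left out. Mrpl58, a peptidyl-tRNA hydrolase built into the large subunit that frees stalled chains, had -0.36 in females (SE 0.24) and 0.30 in males (SE 0.24), with overlap in each. Mrpl4 was at 31.0, 32.2, 31.9 and 42.1 CPM in female CRE- replicates 1 to 4 and at 20.2, 26.3, 25.6 and 28.0 CPM in female LKO replicates 1 to 4, without overlap (log2 fold change -0.45, SE 0.21). In males the large subunit genes with the smallest p were Mrpl47 (0.39, SE 0.21), Mrpl32 (0.42, SE 0.23), Mrpl17 (0.41, SE 0.23) and Mrpl30 (0.42, SE 0.23), as log2 fold changes. All overlapped between the male groups, and with both libraries left out they were at 0.23, 0.22, 0.22 and 0.25. Mrpl50, named here after its values were seen, was at 40.6 ± 8.18 CPM in male CRE- mice and 52.4 ± 4.18 CPM in male LKO mice (SD, n = 4 each), without overlap. Its male log2 fold change was 0.37 (SE 0.21), and 0.24 with both libraries left out.

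Among the small subunit proteins, Mrps27, an RNA-binding protein with pentatricopeptide repeats, had the smallest p in females. It lies on chromosome 13 from 99481275 to 99552070, on the plus strand. Its level was 36.1, 35.5, 32.3 and 48.8 CPM in female CRE- replicates 1 to 4 and 13.7, 25.9, 24.8 and 29.4 CPM in female LKO replicates 1 to 4. In males it was 24.7, 28.2, 17.2 and 29.1 CPM in CRE- replicates 1 to 4 and 22.2, 29.8, 25.7 and 30.1 CPM in LKO replicates 1 to 4. The female groups did not overlap, and the female LKO mice other than replicate 1 lay within the range of the males. The female log2 fold change was -0.70 (SE 0.23, adjusted p = 0.0830 by edgeR's quasi-likelihood test, Benjamini-Hochberg adjusted), and -0.50 with both libraries left out. The male value was 0.12 (SE 0.23), and the sex difference was -0.82 (SE 0.32), or -0.47 with both libraries left out.

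Mrps7 was at 62.99, 78.3, 67.6 and 88.9 CPM in female CRE- replicates 1 to 4 and at 34.7, 57.5, 50.03 and 52.2 CPM in female LKO replicates 1 to 4, again without overlap. Its female log2 fold change was -0.62 (SE 0.22), and -0.46 with both libraries left out. Mrps16 was at 29.5, 30.9, 36.8 and 41.5 CPM in female CRE- replicates 1 to 4 and at 12.6, 25.8, 28.7 and 24.7 CPM in female LKO replicates 1 to 4. Every female LKO mouse was below every control, although replicate 3 at 28.7 CPM was close to the lowest control. The female log2 fold change of Mrps16 was -0.60 (SE 0.25), the male value 0.34 (SE 0.25) and the sex difference -0.94 (SE 0.35). With both libraries left out these were -0.37, 0.16 and -0.53.

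Mrps6 was the gene with the lowest counts and the only one of the 78 with an unadjusted p under 0.05 in males in the edgeR fit of all mice. It was at 4.91, 5.37, 2.57 and 5.26 CPM in male CRE- replicates 1 to 4 and at 7.61, 8.14, 8.10 and 9.02 CPM in male LKO replicates 1 to 4. In females it was at 7.87, 8.39, 6.39 and 8.55 CPM in CRE- replicates 1 to 4 and at 1.08, 8.45, 6.57 and 6.65 CPM in LKO replicates 1 to 4. Every male LKO mouse was above every male control, and the females overlapped. The males differed by 0.86 in log2 (SE 0.40, adjusted p = 0.522 by edgeR's quasi-likelihood test, Benjamini-Hochberg adjusted), and 0.66 with both libraries left out. The female value was -0.46 (SE 0.40), and -0.09 with both libraries left out.

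The 3 Mrps18 paralogs take different places in the ribosome. Mrps18a, in the large subunit, differed by 0.20 (SE 0.29) between male groups and by -0.60 (SE 0.29) between female groups, in log2. Mrps18b, in the small subunit, had 0.31 in males (SE 0.21) and -0.37 in females (SE 0.21), and Mrps18c, also in the small subunit, had 0.34 (SE 0.27) and -0.34 (SE 0.27). All overlapped between LKO and CRE- mice in each sex. With both libraries left out the female values were -0.37, -0.18 and -0.14. Mrps30, which sits in the large subunit, was at 27.9 ± 4.75 CPM in female CRE- mice and 20.6 ± 3.48 CPM in female LKO mice (SD, n = 4 each), with overlap (log2 fold change -0.44, SE 0.18). Mrps36, known as a subunit of the 2-oxoglutarate dehydrogenase complex, had -0.17 in females (SE 0.30) and 0.17 in males (SE 0.30), and 0.09 and -0.07 with both libraries left out. Mrps25, the only gene of the 78 below 0 in males, was at 10.3 ± 3.83 CPM in male CRE- mice and 10.2 ± 1.59 CPM in male LKO mice (SD, n = 4 each).

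**Figure D3:**
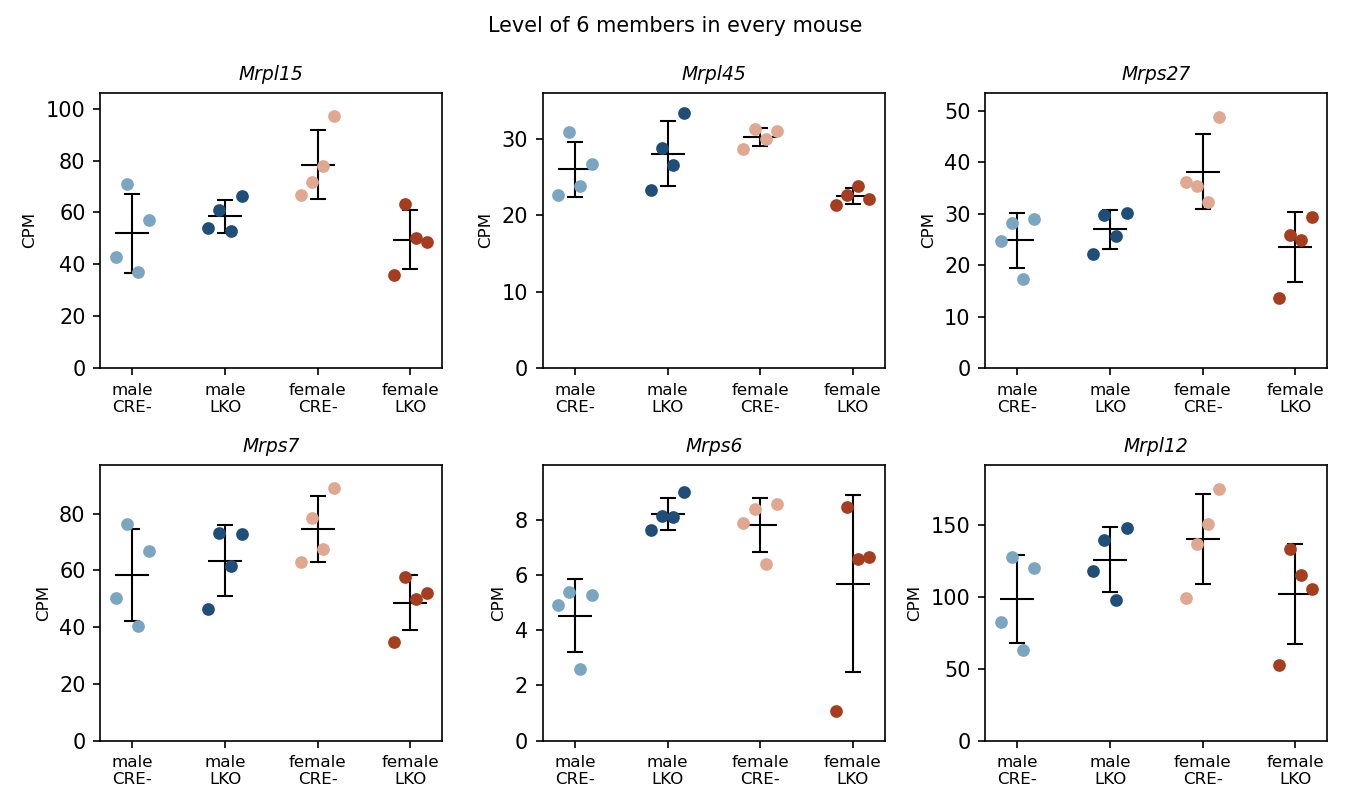
Level in each mouse (CPM) of Mrpl15, Mrpl45, Mrps27, Mrps7, Mrps6 and Mrpl12, with the mean and SD of the 4 mice of a group as bars. For Mrpl45 the female LKO mice lie between 21.3 and 23.8 CPM and the female CRE- mice between 28.7 and 31.2 CPM, and for Mrps6 every male LKO mouse lies above every male CRE- mouse.

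Per kilobase of exon, the mean level over all mice ran from 1.87 CPM (Mrps25) to 119 CPM (Mrpl12), with a median of 16.4 CPM against 2.37 CPM for all genes tested, and 77 of the 78 were above that. The most abundant after Mrpl12 were Mrpl52 (90.1 CPM per kilobase), Mrpl42 (53.8) and Mrps18c (53.7), and the scarcest after Mrps25 were Mrpl3 (2.40), Mrpl19 (2.49) and Mrpl4 (3.52). The scarcest 4 have exons of 5016 to 8707 bases, so their levels per kilobase rest on the annotated length. The 78 genes lie on 17 chromosomes, with 11 on chromosome 11 and 8 on chromosome 17. Exons of 19 of them share bases with a gene on the other strand, which matters where strand is not kept, and the labels do not say that the library kit marks strand, although the counting used it. The share was over 20% for Mrps25 (58.4%, with Nr2c2), Mrpl43 (36.3%, with Twnk), Mrpl40 (23.9%, with Hira) and Mrpl19 (22.8%, with Gcfc2), so these are less certain. Another 3 share exon bases with a gene on the same strand, at most 18.6% (Mrps6, with Slc5a3).

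Promoters were read for the 69 of the 78 genes found by symbol in a RefSeq table of GRCm38.p6 (300 bases, from 250 before the start to 50 after it), a build other than that of the counts. Letters known to be bound by factors of nuclear genes for mitochondria were searched on both strands: GCGCNTGCG for NRF1, CCGGAAG for ETS factors such as GABPA, and ATGGCGGC for YY1. No searched letters overlap each other in the promoters printed here. The NRF1 letters were in 18 of the 69 (26.1%), against 6.31% of all promoters in the table and 12.97% of the genes tested. The ETS letters were in 26 (37.7%, against 8.86% and 17.3%), and the YY1 letters in 12 (17.4%, against 2.24% and 4.84%). At least 1 of the 3 was in 43 of the 69 (62.3%, against 15.4% and 30.4%). Of each pair of background shares the first was counted over promoters, and the second and the members over genes. Counted over all genes of the promoter table, the first was 7.12% for NRF1, 9.93% for ETS, 2.605% for YY1 and 17.2% for at least 1 of them. These are matches of letters, not sites shown to be bound.

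Stretches of 4 promoters that hold matches are shown for the most abundant gene, for genes with small p in females and for a Mrps18 paralog, with matches in capitals. The promoter of Mrpl1, which also had a small p in females, held none of the letters. Mrpl12 (chr11:120484536-120484584, plus strand) and Mrpl45 (chr11:97315577-97315759, plus strand) hold the NRF1 letters, Mrpl12 in 1 place and Mrpl45 in 3. Mrps27 (chr13:99344718-99344830, plus strand) and Mrps18a (chr17:46110958-46111045, plus strand) each hold the ETS letters and then the YY1 letters. All are from RefSeq on GRCm38.p6, written 5′ to 3′.
Mrpl12: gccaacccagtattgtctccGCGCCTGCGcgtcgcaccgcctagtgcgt
Mrpl45: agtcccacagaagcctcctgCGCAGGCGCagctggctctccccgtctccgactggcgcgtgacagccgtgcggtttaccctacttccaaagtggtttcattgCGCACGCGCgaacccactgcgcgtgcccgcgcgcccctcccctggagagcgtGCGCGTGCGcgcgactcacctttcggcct
Mrps27: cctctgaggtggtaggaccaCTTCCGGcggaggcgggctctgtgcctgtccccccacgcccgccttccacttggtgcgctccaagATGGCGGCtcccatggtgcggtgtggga
Mrps18a: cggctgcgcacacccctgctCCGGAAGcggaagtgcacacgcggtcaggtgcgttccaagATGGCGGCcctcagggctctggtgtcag

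Other genes of mitochondrial translation were examined as lists. The 5 mitoribosomal proteins under other names had medians of 0.20 in males and -0.42 in females, and Chchd1, of the small subunit, was at 0.65 in males (SE 0.28). The 26 factors that assemble the mitochondrial ribosome had 0.26 and -0.23, and Mtg2, a GTPase of large subunit assembly, was at -0.49 in females (SE 0.16). Of the 15 translation factors, edgeR called 1 in females (6.67%, against 4.24% of all genes). This was Gfm2, which recycles the ribosome and fell (log2 fold change -0.62, SE 0.16, adjusted p = 0.0454 by edgeR's quasi-likelihood test, Benjamini-Hochberg adjusted). With single female mice removed the call held in 1 of 8 fits, and it was lost with both libraries that stood apart left out, at -0.52. The list had medians of 0.12 and -0.34, with the elongation factor Tufm at -0.32 in females and the RNA-binding Lrpprc at -0.21. The 20 enzymes that charge mitochondrial transfer RNAs, which are synthetases and the amidotransferase subunits Qrsl1, Gatb and Gatc, had 0.01 and -0.23, with Gatb at -0.73 in females (SE 0.21). Their highest sums were those of a single gene, the leucyl-tRNA synthetase Lars2. It made up 2696 of 3006 CPM in the library labelled male CRE- replicate 3, 5734 of 6088 CPM in female CRE- replicate 4 and 5203 of 5462 CPM in female LKO replicate 1. The 10 genes of mitochondrial DNA transcription and replication had 0.15 and -0.32, with the DNA-packaging Tfam at -0.34 (SE 0.21) and the RNA polymerase Polrmt at -0.07 (SE 0.15) in females.

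In these lists edgeR called none but Gfm2. At an unadjusted p under 0.05 in females stood 2 of the 5, 3 of the 26, 5 of the 15, 4 of the 20 and 4 of the 10, all lower, while DESeq2 called 0, 2, 2, 2 and 2, and limma-voom 0, 0, 3, 2 and 1. Of all genes in females, 9.14% were lower at an unadjusted p under 0.05, DESeq2 called 10.8% and limma-voom 11.8%. With both libraries that stood apart left out, the female medians were -0.35, -0.10, -0.19, -0.22 and -0.12, and the male medians 0.08, 0.13, 0.02, -0.06 and 0.10.

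Among 9 regulators of mitochondrial gene expression, Myc rose in females (log2 fold change 2.06, SE 0.45, adjusted p = 0.0231 by edgeR's quasi-likelihood test, Benjamini-Hochberg adjusted), a call that held in 4 of 8 fits with single female mice removed and with both libraries that stood apart left out (2.14). The coactivator Ppargc1a was at -0.92 in males (SE 0.33) and 0.14 in females (SE 0.33), and the list's medians were -0.02 and 0.14, or 0.08 and 0.17 with both libraries left out. Of 12 mitochondrial chaperones and proteases with their regulators, Atf5, a transcription factor of the mitochondrial stress response, rose in males (log2 fold change 1.05, SE 0.20, adjusted p = 0.0317 by edgeR's quasi-likelihood test, Benjamini-Hochberg adjusted). It held in 2 of 8 fits with single male mice removed and with both libraries left out (0.98), and the list's medians were 0.22 and -0.20, or 0.17 and -0.14 without both. Of all genes edgeR called 4.24% in females and 0.454% in males.

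Mitochondrial translation makes the 13 proteins encoded in mitochondrial DNA. The levels here are those of their messenger RNAs, not of the proteins. The summed level was 44753, 57835, 50593 and 52538 CPM in female CRE- replicates 1 to 4 and 30844, 40899, 33947 and 26003 CPM in female LKO replicates 1 to 4, without overlap. In males it was 39067, 57872, 59202 and 50594 CPM in CRE- replicates 1 to 4 and 34352, 48636, 52870 and 52500 CPM in LKO replicates 1 to 4, with overlap. Here the libraries that stood apart were not the lowest of their groups. The median log2 fold change was -0.70 in females and -0.02 in males, and -0.56 and 0.06 with both libraries left out. In females edgeR called 0 of the 13, with 4 at an unadjusted p under 0.05, all lower (9.14% of all genes were), while DESeq2 called 3 (10.8% of all genes) and limma-voom 2 (11.8%).

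The most like families were nuclear-encoded. The 41 complex I subunits tested had medians of 0.28 in males, -0.47 in females and -0.79 for the sex difference, and 0.10, -0.20 and -0.33 with both libraries left out. The 76 cytosolic ribosomal proteins tested had 0.64 in males, -0.03 in females and -0.70 for the sex difference. With both libraries left out, when 77 were tested, the medians were 0.43, 0.13 and -0.29. Of the 76, 54 had an unadjusted p under 0.05 in males, all higher (4.79% of all genes were), and 41 of the 77 with both libraries left out. In males edgeR called 0 of the 76 (0.454% of all genes), DESeq2 1 (2.02%) and limma-voom 0 (0.884%). Of the 41 complex I subunits, 11 had an unadjusted p under 0.05 in females, all lower (26.8%, against 9.14% of all genes). In females edgeR called 0 of the 41 (4.24% of all genes), DESeq2 3 (10.8%) and limma-voom 0 (11.8%). Among genes named from these lists, Ndufa13 was at -0.78 in females (SE 0.25) and Rpl36a at 0.94 in males (SE 0.26). Differences between the families were not tested.

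Markers of liver cell types were also examined as lists. Some of them differed with genotype in females by edgeR, as given below, and the part of cell types in the values above was not tested. The 10 hepatocyte markers, of which Alb was the most abundant, summed to 157256, 144516, 151657 and 179469 CPM in female CRE- replicates 1 to 4 and to 89435, 126309, 120864 and 134300 CPM in female LKO replicates 1 to 4. In males they summed to 95307, 125680, 139166 and 127635 CPM in CRE- replicates 1 to 4 and to 87386, 102480, 117232 and 102767 CPM in LKO replicates 1 to 4. None was at 0, so each library carried the transcripts of the labelled tissue. The female groups did not overlap, with LKO lower, and the list's medians were -0.62 in females and -0.08 in males. In females edgeR called 0 of the 10 with 4 at an unadjusted p under 0.05, all lower (9.14% of all genes were), while DESeq2 called 3 (10.8% of all genes) and limma-voom 2 (11.8%). With both libraries that stood apart left out, the medians were -0.40 in females and -0.21 in males. In that fit edgeR called 1 in females, which was lower, and 2.13% of all genes.

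The 9 macrophage markers, led by Cd5l, summed to 882, 645, 716 and 1216 CPM in female CRE- replicates 1 to 4 and to 4004, 1178, 2521 and 1539 CPM in female LKO replicates 1 to 4. In males they summed to 1083, 532, 297 and 1581 CPM in CRE- replicates 1 to 4 and to 1376, 742, 821 and 720 CPM in LKO replicates 1 to 4. Female LKO replicate 1, the lowest mouse in mitochondrial ribosomal proteins, was the highest here, and the library labelled male CRE- replicate 3 was the lowest. The median was 1.40 in females and 0.01 in males, all 9 had an unadjusted p under 0.05 in females, and edgeR called 1 of the 9, Adgre1, which rose (log2 fold change 2.15, SE 0.57), while DESeq2 called 7 and limma-voom 8, all higher. Of all genes in females 12.3% were higher at an unadjusted p under 0.05, and edgeR called 4.24%, DESeq2 10.8% and limma-voom 11.8%. The Adgre1 call held in 2 of 8 fits with single female mice removed, and the value was 1.21 without replicate 1 of the LKO group. With both libraries that stood apart left out, edgeR called 0 of the 9 in females (2.13% of all genes) with 7 at an unadjusted p under 0.05, where 10.1% of all genes were higher. The medians were then 1.21 in females and -0.26 in males.

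The 8 proliferation markers, led by Mki67, summed to 11.6, 10.5, 6.46 and 20.6 CPM in female CRE- replicates 1 to 4 and to 91.9, 17.8, 38.8 and 41.8 CPM in female LKO replicates 1 to 4. In males they summed to 15.01, 6.995, 23.1 and 11.3 CPM in CRE- replicates 1 to 4 and to 17.9, 11.3, 17.2 and 7.29 CPM in LKO replicates 1 to 4. In females 6 of the 8 rose by edgeR (Aurkb, Birc5, Ccnb1, Cdk1, Plk1 and Top2a), while DESeq2 called 8 and limma-voom 7, with a median of 1.93. Of all genes in females edgeR called 4.24%, DESeq2 10.8% and limma-voom 11.8%. With single female mice removed each of the 6 calls was lost in 4 to 7 of 8 fits, and all 6 were lost without female CRE- replicate 2, without female CRE- replicate 3 or without female LKO replicate 1. Female LKO replicate 1 was again the highest mouse. With both libraries left out the median was 1.67 and edgeR called 0 of the 8 (2.13% of all genes), with 7 at an unadjusted p under 0.05. At that threshold 10.1% of all genes were higher. The male median was 0.40, and 0.37 with both libraries left out.

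The 8 neutrophil markers, led by S100a9, summed to 38.1, 20.7, 16.95 and 19.004 CPM in female CRE- replicates 1 to 4 and to 125, 45.4, 71.5 and 618 CPM in female LKO replicates 1 to 4. In males they summed to 92.0, 21.1, 17.2 and 183 CPM in CRE- replicates 1 to 4 and to 27.3, 16.9, 13.1 and 12.6 CPM in LKO replicates 1 to 4. Of the 7 tested, Ngp and Retnlg rose in females by edgeR, while DESeq2 called 7 and limma-voom 3, all higher, and the medians were 3.17 in females and -2.23 in males. Of all genes in females edgeR called 4.24%, DESeq2 10.8% and limma-voom 11.8%. With single female mice removed, Ngp (log2 fold change 4.68, SE 1.27) held its call in 1 of 8 fits, at 2.79 to 5.12, and Retnlg (2.86, SE 0.69) in 2 of 8, at 2.04 to 3.19. Both were lowest without female LKO replicate 4, the highest mouse. With both libraries that stood apart left out, Ngp lost its call at 4.93 and Retnlg kept it at 3.04. Of the 8 then tested edgeR called 2 in females (2.13% of all genes), and the medians were 3.63 in females and -2.62 in males. In males edgeR called 0 of the 7 with 6 at an unadjusted p under 0.05, all lower (4.74% of all genes were), while DESeq2 called 2 (2.02% of all genes) and limma-voom 0 (0.884%). The 6 erythroid markers, led by Hbb-bs, had medians of 0.58 in females and -1.28 in males, and 0.79 and -1.37 with both libraries left out. They summed to 673 ± 186 CPM in male CRE- mice and 316 ± 112 CPM in male LKO mice (SD, n = 4 each), without overlap, and to 492 ± 147 CPM in female CRE- mice and 730 ± 567 CPM in female LKO mice (SD, n = 4 each), with overlap. Among these 6 edgeR called 0 in males with 5 at an unadjusted p under 0.05, all lower, beside the same shares of all genes, while DESeq2 called 1 and limma-voom 0.

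The 6 markers of skeletal muscle and adipocytes, led by Acta1, summed to 80.3 CPM in male LKO replicate 3 and 49.7 CPM in male LKO replicate 4, and to at most 0.446 CPM in the other male libraries. In females they summed to between 0.463 and 19.5 CPM. Among these 6 edgeR called 0 in males with 5 at an unadjusted p under 0.05, all higher (4.79% of all genes were), while DESeq2 called 2 (2.02% of all genes) and limma-voom 0 (0.884%). The medians were 6.28 in males and -1.01 in females, and 6.89 and -0.66 with both libraries left out.

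In the remaining lists edgeR called 1 gene, in females, where it called 4.24% of all genes. The medians in males and females were -0.13 and 0.25 for 9 T and NK cell markers, 0.15 and 0.49 for 7 B and plasma cell markers, and 0.44 and 0.24 for 7 cholangiocyte markers. They were 0.23 and 0.28 for 8 endothelial markers, of which 5 were above 0 and 3 below in females, where Cdh5 rose (log2 fold change 0.79, SE 0.17) and Clec4g was at -0.70 (SE 0.40), and -0.57 and 0.16 for 9 stellate cell and fibroblast markers. With both libraries left out, the medians were -0.37 and 0.22 for T and NK cells, 0.14 and 0.50 for B and plasma cells, and 0.32 and -0.01 for cholangiocytes. They were 0.24 and 0.30 for endothelium and -0.05 and -0.12 for stellate cells and fibroblasts, so the female medians of the cholangiocyte and stellate lists changed sign and the male stellate value came close to 0. The Cdh5 call held in 4 of 8 fits with single female mice removed and with both libraries that stood apart left out (0.71). The most abundant genes of these lists were Nkg7, Ighm, Spp1, Stab2 and Dcn in the order given.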

How the data were processed

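Alignment to GRCm39 was done by the authors with STAR 2.7.1a, and the count of reads per gene was made with featureCounts (Subread 2.0.6), and these unnormalized counts were taken as deposited. Low counts were filtered with filterByExpr (minimum count 10), libraries were scaled by TMM, and all 16 libraries were fitted together over the whole table by edgeR 4.0.16 in R 4.3.3, with an adjusted p under 0.05 as the threshold. DESeq2 1.42.0 and limma-voom with sample quality weights (limma 3.58.1) were alternatives. The SE given with edgeR values is the absolute log2 fold change divided by the square root of the test's F statistic. Exon overlaps came from bedtools 2.31.1. The 78 members and the lists were chosen with earlier results of these data known. The members named were the 5 with the smallest p per comparison and direction, the 4 most and 4 least abundant per kilobase, and 8 taken for their known place or role. From other lists they were the called genes or the 2 with the smallest p, and 6 taken for their role. Mrpl50 was added after seeing the data. Leaving out both low libraries was also added then. The NRF1 letters were shortened after a first, longer search had been seen.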

Additional observations from a re-analysis of the deposited data

Results flagged for a closer look

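Among 112 groups of 4 libraries examined for a value far from the rest of its group (Dixon's test), where about 1 in 20 would be marked by chance, 8 values were marked. In female LKO replicate 1 these were the sum of the 78 genes (1258 CPM), the sum of the small subunit genes (373 CPM), Mrpl30 (25.6 CPM), Mrpl52 (14.2 CPM) and Mrps18a (11.3 CPM), all low. In the library labelled male CRE- replicate 3 they were Mrps6 (2.57 CPM) and Gcgr (127 CPM), both low. Mrpl4 was high in female CRE- replicate 4 (42.1 CPM). The cause was not tested.

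Values were also marked where every LKO library of a sex lay on 1 side of its control mean and every LKO library of the other sex on the opposite side. Of the 78 genes 26 had every male LKO library above and every female LKO library below, as had 609 (3.64%) of all genes tested. Without the library labelled male CRE- replicate 3, the male control mean of the sum was 2318 CPM. Male LKO replicates 1 (2288 CPM) and 3 (2228 CPM) lay below that, so the sum would not be marked. The marks of single genes also use control means that include this library. Only sums and genes named in the text are listed here. The sex difference in log2 was -0.63 for the sum of the 78 genes, -0.61 for the large subunit and -0.67 for the small subunit, none of which was tested. It was -0.83 for Mrpl15, -0.76 for Mrpl30, -0.77 for Mrpl32, -0.83 for Mrpl52, -0.66 for Mrpl58, -0.94 for Mrps16, -0.68 for Mrps18b and -0.63 for Mrps30, and for these genes the test of the sex difference missed an adjusted p of 0.05.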

How the results depend on the processing

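The 0 calls among the 78 genes in females became 3 with DESeq2, 2 with limma-voom, 2 with a length trend offset and 0 to 1 with each mouse left out in turn (1 without female LKO replicate 2, Mrpl15). With the replicate number as a block there were 4 (Mrps7, Mrpl49, Mrpl15 and Mrps27; 5.13%, against 6.04% of all genes), and 9 with a replicate block and the length trend offset (11.5%, against 8.46%). With the block alone, at an unadjusted p under 0.05, 16 of the 78 were higher in males (6.43% of all genes), 32 lower in females (41.0%, against 12.02%) and 59 lower for the sex difference (75.6%, against 11.2%). The labels do not say that libraries of the same number are paired. The replicate numbers are those of the sample titles. The column headers of the deposited counts number male CRE- replicate 4 and female LKO replicates 3 and 4 otherwise. The correlations of same-numbered libraries were 0.170, 0.170, 0.144 and -0.0130 in males and 0.173, 0.105, 0.117 and 0.0281 in females, and 9 of 16 libraries correlated best with their own number. The median sex difference of the 78 was -0.26 with both low libraries left out, and -0.27 with the length trend offset as well. With each mouse left out in turn the medians were 0.08 to 0.38 in males, -0.44 to -0.16 in females and -0.74 to -0.43 for the sex difference.

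Some values changed sign, and the cause was not tested. Mrps25 in males (-0.01 in the first fit) was at 0.0460 with a replicate block, 0.0323 with the length trend offset, 0.14 with both, 0.0600 with limma-voom, and -0.21 to 0.19 with each mouse left out in turn. ND6 in males (-0.81) was at 0.0874 with both low libraries left out, 0.0352 with the offset as well, and -1.10 to 0.0792 with each mouse left out. Reln in males (-0.91) was at 0.0228, 0.0300 and -1.15 to 0.0178 in the same fits. Ckm in females (-1.33) was at 0.00400 with a replicate block and the offset, 2.05 with limma-voom, and -3.13 to 0.82 with each mouse left out.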
